A study of Homo sapiens with 18 samples.

Results

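The late minus early effect of SEL120-34A is what the compound did to each transcript at 24 h, SEL120-34A against DMSO, less what it did at 8 h. It was read from 12 of the 18 RNA-seq libraries of the study and over every gene with enough counts to be tested, 20920 of 60609 identifiers. The 12 libraries fall into 4 groups of 3: SEL120-34A for 24 h, DMSO for 24 h, SEL120-34A for 8 h and DMSO for 8 h. All are poly-A selected RNA of OCI-AML1, a human acute myeloid leukaemia line labelled WT for genotype, and DMSO is the solvent control. The other 6 libraries, of cells given a compound coded AML874, entered the fit that estimates the spread between libraries, and the changes of 10 genes in them are given at the end. No concentration is given in the labels, and they do not say whether the 3 libraries of a group came from separate cultures, so each p-value speaks only of the spread among the libraries at hand, which may be technical. In bulk RNA of one line, fewer cells of a state and less RNA per cell cannot be told apart.

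SEL120-34A inhibits CDK8 and its paralogue CDK19, the kinases of Mediator, the complex that passes signals from DNA-bound transcription factors to RNA polymerase II. CDK8 or CDK19 binds cyclin C, MED12 and MED13 in a module that attaches reversibly to Mediator, and its substrates include transcription factors of the STAT, SMAD and Notch pathways. An inhibitor of such a kinase can change a transcript within hours and again later, when the products of the first genes have themselves changed. The direction and the size of an effect at 8 h therefore need not be those at 24 h, and the comparison asks which effects passed, lasted, came late or turned round.

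Gene counts per library ran between 98975944 and 142496541. The line carried the myeloid transcripts SPI1, CEBPA, CD33, LYZ, CSF3R, PTPRC and MPO in all 12 libraries. FCER1G, TYROBP and AZU1 were low, with at most 2.48 CPM (counts scaled for library size), and ANPEP lay at or near 0. CSF2RA had no count, but reads that map to several places were left out, so this does not show that it is absent. Markers of other cell types lay under 1 CPM in all 12 libraries for 8 of 10 T and NK cell genes, 7 of 8 B cell genes, 9 of 10 erythroid and megakaryocyte genes and 11 of 12 stromal and epithelial genes. The exceptions were PECAM1, at 52.8 to 74.3 CPM, and TRAC, NKG7, CD79A and ITGA2B, with at most 7.49 CPM. The mean log2 CPM of the 10 tested myeloid identity genes was 4.72 to 4.75 after SEL120-34A at 24 h and 5.17 to 5.21 in DMSO at 24 h. At 8 h it was 4.99 to 5.04 after SEL120-34A and 5.22 to 5.27 in DMSO. The part of this marker shift in the results below was not tested.

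The effect of SEL120-34A differed between 24 h and 8 h for 5706 genes, 27.3% of those tested, at a Benjamini-Hochberg adjusted p under 0.05 in edgeR's quasi-likelihood test. The late minus early log2 change was above 0 for 2979 genes (14.2%) and below 0 for 2727 (13%), so 52.2% of calls were upward. Scaling by library totals alone turned that share to 29.1%, with a median over all genes of -0.07. At 24 h the compound's effect was called for 7879 genes (37.7%), 19.1% of tested genes being higher and 18.6% lower. At 8 h it was called for 9425 genes (45.1%), 22.4% higher and 22.6% lower. Most shifts were small, with a median absolute late minus early change of 0.285 (log2) among called genes. Of 10108 protein-coding genes with at least 5 CPM in some group, 4109 were called, 327 of them by more than 0.5 and 26 by more than 1 on the log2 scale. Across those 10108 genes the 24-h and the 8-h effects, which share no library, had a Pearson r of 0.562 and a Spearman rho of 0.496. Genes are not independent replicates, and these coefficients describe the plot of one effect against the other.

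**Figure D1:**
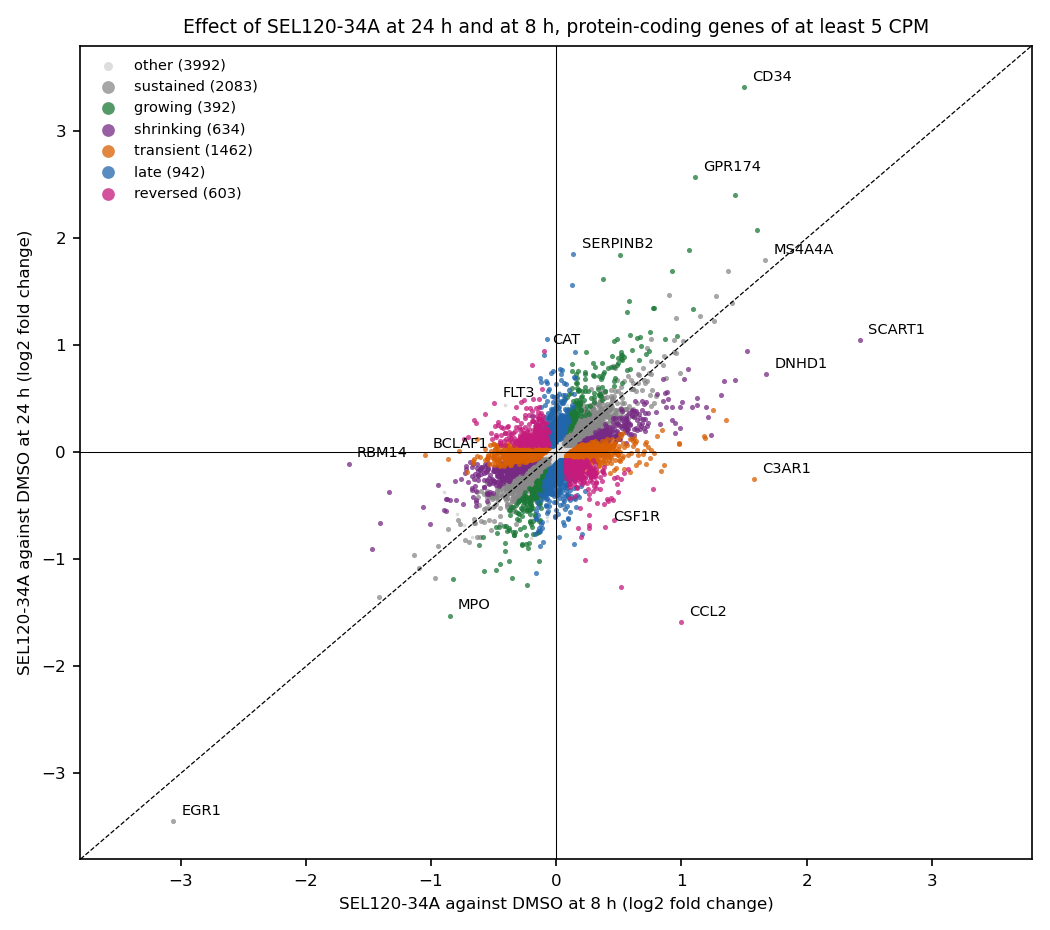
Effect of SEL120-34A at 24 h (y axis, log2 SEL120-34A over DMSO) against its effect at 8 h (x axis, same scale) for 10108 protein-coding genes, each point a gene coloured by its class. Sustained genes (2083) lie along the diagonal, transient genes (1462) along the horizontal line at 0, late genes (942) along the vertical line at 0, and reversed genes (603) in the upper left and lower right.

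Each gene was placed in a class by which of 3 tests it passed: the effect at 24 h, the effect at 8 h and the difference between them. Sustained genes were called at both times in the same direction with no call on the difference, and there were 3053 of them, 1526 higher and 1527 lower. Growing genes (453) and shrinking genes (812) were also called in 1 direction at both times, but with a called difference that enlarged or reduced the effect at 24 h. Transient genes were called at 8 h and on the difference but not at 24 h, and numbered 2229, of which 1093 were higher and 1136 lower at 8 h. Late genes (1335) were called at 24 h and on the difference but not at 8 h, 659 higher and 676 lower. Reversed genes (726) were called at both times in opposite directions, 309 of them higher at 8 h and lower at 24 h and 417 the other way round. A further 2152 genes called at 8 h alone and 1500 called at 24 h alone had no called difference, so they could not be assigned to the transient or the late class. Missing the threshold at one time does not show that there was no effect then.

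**Figure D2:**
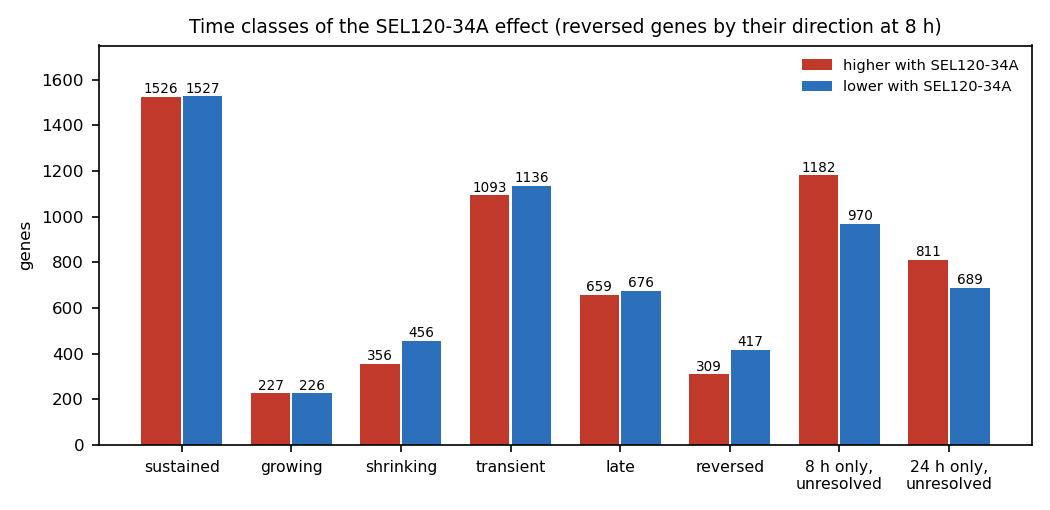
Number of genes (y axis, from 0) in each class (x axis), split by direction of the effect of SEL120-34A; reversed genes are split by their direction at 8 h. Transient genes (1093 higher, 1136 lower) outnumber late genes (659 higher, 676 lower), and 417 reversed genes went down at 8 h and up at 24 h against 309 the other way.

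Of the 5044 genes called at both times, 4318 (85.6%) kept their direction. Of the 7879 genes called at 24 h, 64% were also called at 8 h, and of the 9425 called at 8 h, 53.5% were also called at 24 h. The reversed class held the most genes with a late minus early change over 0.5 in size, 109 of the 603 in the set of 10108, against 71 of 1462 transient and 68 of 942 late genes. Reversed genes had to be called at both times in opposite directions, so larger changes follow in part from how the class is defined. The median gene length of all 10108 genes was 34.1 kb. Among genes lower at 8 h it was 43.6 kb for transient, 43.7 kb for shrinking, 44.9 kb for reversed, 41.5 kb for sustained and 31.7 kb for growing ones. Among genes higher at 8 h it was 28.7 kb for transient, 29.6 kb for shrinking, 36.3 kb for reversed, 31.6 kb for sustained and 34.6 kb for growing ones. Late genes had 33.2 kb for the higher and 35.5 kb for the lower ones.

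A change in the effect can come from movement in treated cells, in control cells or in both. For 2112 of the 5706 genes (37%) only the SEL120-34A libraries changed between 8 h and 24 h at the same threshold, and for 1072 (18.8%) only the DMSO libraries did. Both moved for 2401 genes, in the same direction for 1746 and in opposite directions for 655. DMSO libraries at 24 h differed from DMSO libraries at 8 h for 8898 genes (42.5% of those tested, 19.8% higher and 22.7% lower). The SEL120-34A libraries differed for 10591 (50.6%, with 24.5% higher and 26.2% lower). The main genes below are therefore given with their level in all 4 groups, and others by their effects at the 2 times or the difference alone.

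Among the protein-coding genes of at least 5 CPM that were low at 8 h, RBM14 had the largest late minus early change of the shrinking class and BCLAF1 that of the transient class. RBM14 (ENSG00000239306.4, chromosome 11, 66616582 to 66627347, plus strand of GRCh38, as for the positions below), a paraspeckle protein that acts in transcription and splicing, had 125, 120.0 and 120.5 CPM after SEL120-34A at 24 h and 132, 132 and 129 CPM in DMSO at 24 h. At 8 h it had 51.8, 48.97 and 49.6 CPM after SEL120-34A and 158, 164 and 152 CPM in DMSO. The groups did not overlap at either time, but the gap was far narrower at 24 h. Its effect was -0.11 ± 0.03 (log2 change ± SE) at 24 h and -1.66 ± 0.04 at 8 h, a late minus early change of 1.55 ± 0.05 (adjusted p = 3.15e-20). RBM14 shares its strand and exons with the read-through gene RBM14-RBM4, and counting may split their reads. It was called shrinking, and transient in 4 of 25 alternative analyses.

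BCLAF1 (ENSG00000029363.17, chromosome 6, 136256627 to 136289851, minus strand), a nuclear factor of mRNA processing and transcription, had 269.9, 272 and 279 CPM after SEL120-34A at 24 h, against 275, 278 and 281 CPM in DMSO. At 8 h the values were 147, 148 and 152 CPM after SEL120-34A and 311, 309 and 306 CPM in DMSO. The ranges overlapped at 24 h and lay far apart at 8 h. The late minus early change was 1.03 ± 0.04 (adjusted p = 1.43e-20), made of a 24-h effect of -0.02 ± 0.03 and an 8-h effect of -1.05 ± 0.03. Its binding partner THRAP3 moved alike, with 259 ± 3.84 CPM after SEL120-34A and 276 ± 4.83 CPM in DMSO at 24 h (SD, n = 3 each), and 184 ± 1.89 CPM and 295 ± 4.79 CPM for the same treatments at 8 h. THRAP3 was still lower at 24 h, at -0.09, and its late minus early change was 0.59 ± 0.03.

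Of all tested genes 14.2% had a called late minus early change above 0 and 13% below, with a median of 0.00. These shares are the background for every list count below. Among 31 splicing factors the late minus early change was above 0 for 18 and below 0 for 2, with a median of 0.14. Their 24-h effect was higher for 4 and lower for 18, with a median of -0.11, and their 8-h effect higher for 5 and lower for 24, with a median of -0.25. The hnRNP proteins, which package nascent RNA, included HNRNPD, at -0.13 at 24 h and -0.72 at 8 h, and HNRNPA1, at 0.07 at 24 h and -0.41 at 8 h, which was reversed here and transient in 11 of 25 alternatives. The SR proteins SRSF1 and SRSF2, which bind exonic enhancers, and their relatives TRA2A and TRA2B were all in the shrinking class. TRA2A had 99.6, 100.4 and 103 CPM after SEL120-34A and 113, 112 and 113 CPM in DMSO at 24 h, and 62.2, 62.7 and 61.2 CPM after SEL120-34A and 105, 104 and 98.3 CPM in DMSO at 8 h. The SR protein kinases CLK1 and CLK4 went the other way from the start: CLK1 rose by 0.88 at 24 h and by 0.49 at 8 h, so it was growing. SRSF6 and CLK2 were the 2 with a change below 0, and SRSF6 was transient with 0.17 at 8 h.

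Other genes that were low at 8 h and not called at 24 h were RBM4B, a relative of the splicing factor RBM4, TMEM129, a ubiquitin ligase of the endoplasmic reticulum, STOX2 and KBTBD11. RBM4B had 21.03 ± 0.898 CPM after SEL120-34A and 21.9 ± 0.862 CPM in DMSO at 24 h, and 12.1 ± 0.656 CPM after SEL120-34A and 22.2 ± 0.794 CPM in DMSO at 8 h (SD, n = 3 each). Its late minus early change was 0.81 ± 0.07. TMEM129, STOX2 and KBTBD11 had changes of 0.79, 0.76 and 0.60. STOX2 was reversed rather than transient in 7 of 25 alternative analyses. OLIG1, a basic helix-loop-helix factor, shrank, with an effect of -0.38 ± 0.04 at 24 h and -1.34 ± 0.04 at 8 h. POLR2A, the largest subunit of RNA polymerase II, had 491, 487 and 474 CPM after SEL120-34A and 461, 454 and 438 CPM in DMSO at 24 h, and 311, 308 and 320.3 CPM after SEL120-34A and 427, 434 and 424 CPM in DMSO at 8 h. It was therefore slightly above control at 24 h and well below it at 8 h, with no overlap at either time and a late minus early change of 0.55 ± 0.04. HEXIM1, the inhibitor of the elongation kinase P-TEFb, was lower at both times, at -0.44 at 24 h and -0.80 at 8 h. Over 28 transcription elongation genes 7 had a change above 0 and 4 below, with a median of 0.06. With library totals alone 6 were above and 8 below, and 2 were below without SEL120-34A 24-h replicate 3 or without DMSO 8-h replicate 1.

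**Figure D3:**
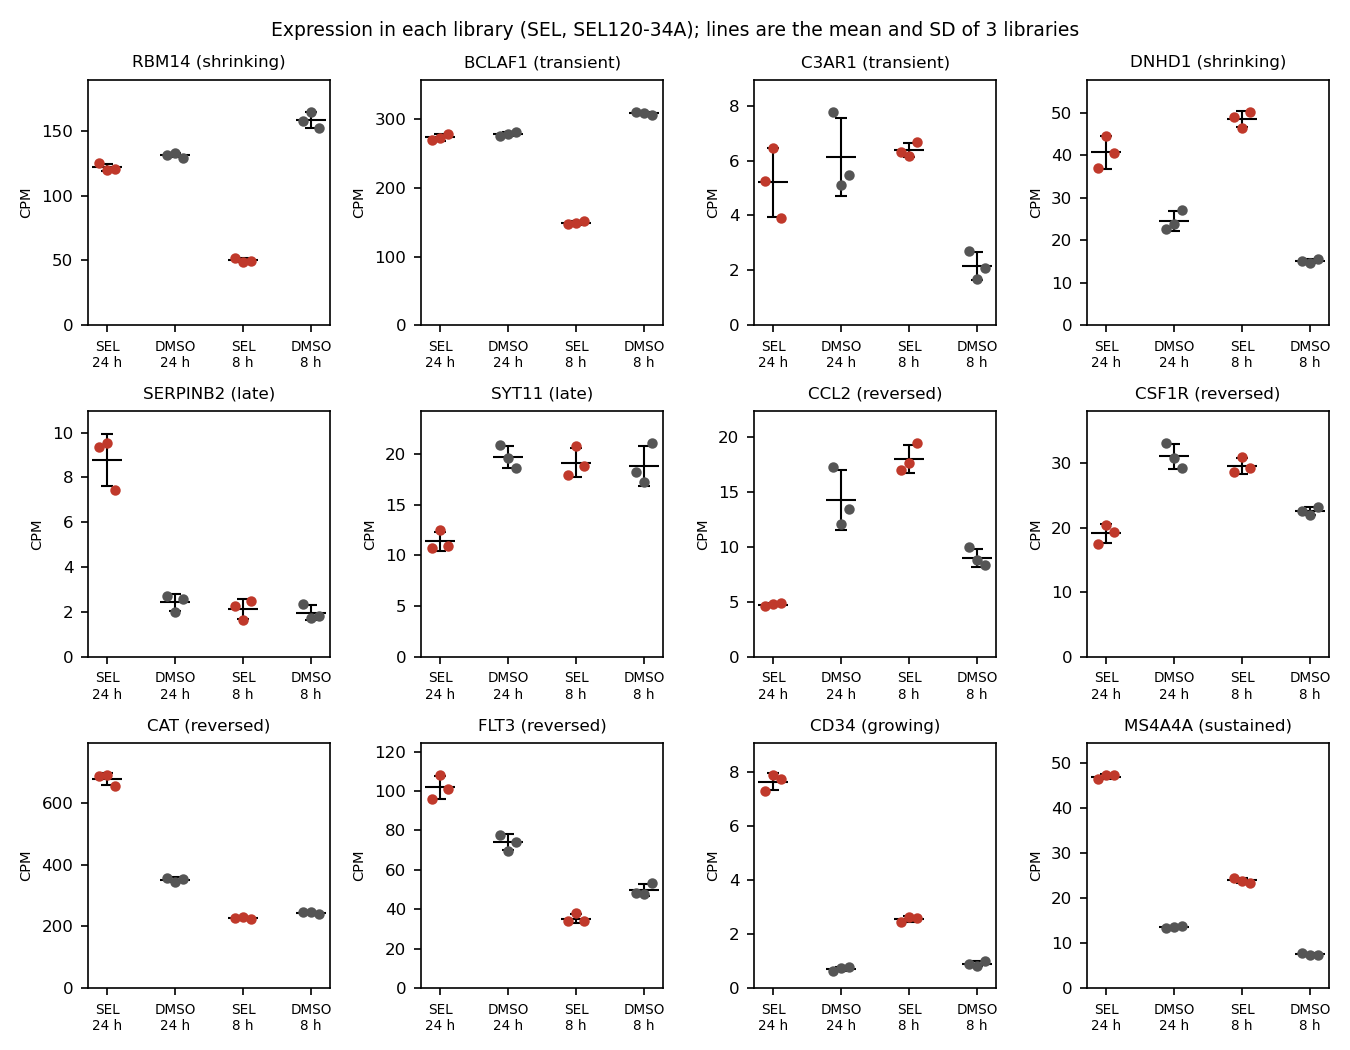
Level of 12 genes (y axis, CPM, from 0) in each library, for SEL120-34A 24 h, DMSO 24 h, SEL120-34A 8 h and DMSO 8 h from left to right; points are libraries and bars the mean and SD of 3. RBM14 and BCLAF1 are low in the SEL120-34A 8-h libraries, SERPINB2 is high in the SEL120-34A 24-h libraries, and CCL2 and CSF1R are low at 24 h and high at 8 h after SEL120-34A relative to DMSO.

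The genes that SEL120-34A raised at 8 h and no longer at 24 h were led by C3AR1 (ENSG00000171860.5, chromosome 12, 8058302 to 8066471, minus strand), the receptor for the complement peptide C3a. It had 5.25, 6.45 and 3.92 CPM after SEL120-34A at 24 h and 7.77, 5.12 and 5.49 CPM in DMSO at 24 h. At 8 h it had 6.32, 6.16 and 6.67 CPM after SEL120-34A and 2.696, 1.697 and 2.104 CPM in DMSO. The treated libraries of the 2 times overlapped, and the DMSO libraries were low at 8 h and within reach of the treated ones at 24 h. The DMSO change with time was 1.52 ± 0.28 (adjusted p = 0.000537) and that of the treated cells -0.31 ± 0.25 (adjusted p = 0.343). The late minus early change was -1.83 ± 0.37 (adjusted p = 0.0025).

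ENPP2, which encodes autotaxin, the enzyme that makes lysophosphatidic acid, also rose in DMSO with time, at 94.5, 118 and 104 CPM after SEL120-34A and 114, 66.6 and 74.9 CPM in DMSO at 24 h. At 8 h it had 52.03, 48.3 and 53.3 CPM after SEL120-34A and 24.2, 17.1 and 18.98 CPM in DMSO. The groups overlapped at 24 h and not at 8 h. Its late minus early change of -1.05 ± 0.34 (adjusted p = 0.0359) lost its call when any of 8 of the 12 libraries was left out. SEC31B, a coat protein of vesicles leaving the endoplasmic reticulum, was called transient in all 25 alternatives, with 35.95 ± 3.07 CPM after SEL120-34A and 32.4 ± 2.17 CPM in DMSO at 24 h, and 46.2 ± 2.99 CPM and 20.3 ± 0.732 CPM for the same treatments at 8 h (SD, n = 3 each). In RHBDL1, a rhomboid protease, the treated level fell with time (-1.28) and the DMSO change was not called (-0.22, adjusted p = 0.0841): it had 2.296 ± 0.141 CPM after SEL120-34A and 2.09 ± 0.0997 CPM in DMSO at 24 h, and 5.57 ± 0.508 CPM after SEL120-34A and 2.45 ± 0.171 CPM in DMSO at 8 h. UBAP1L, with a late minus early change of -1.01, completed the 5 by size. DNHD1 and DNAH1, genes of dynein heavy chain type, and SCART1 kept part of their rise. DNHD1 had 36.9, 44.6 and 40.7 CPM after SEL120-34A and 22.6, 23.9 and 27.03 CPM in DMSO at 24 h, and 49.1, 46.4 and 50.2 CPM after SEL120-34A and 15.1, 14.8 and 15.7 CPM in DMSO at 8 h. SCART1 had an effect of 1.04 ± 0.11 at 24 h and 2.42 ± 0.12 at 8 h.

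GATA2, a transcription factor of stem and progenitor cells, was transient: 59.2, 62.4 and 60.5 CPM after SEL120-34A and 71.6, 62.3 and 59.6 CPM in DMSO at 24 h, and 72.03, 70.1 and 74.2 CPM after SEL120-34A and 48.6, 44.1 and 44.4 CPM in DMSO at 8 h. The groups overlapped at 24 h and not at 8 h, and the late minus early change was -0.75 ± 0.10 (adjusted p = 7.73e-05). Among 16 targets of LXR, the nuclear receptor for oxysterols, and fatty acid synthesis genes 8 had a change below 0 and 1 above, with a median of -0.13, and without DMSO 24-h replicate 1 the number above was 3, without DMSO 8-h replicate 2 or 3 it was 2. Their 24-h effect was higher for 4 and lower for 5, and their 8-h effect higher for 6 and lower for 2. NR1H3, which encodes LXRα, had 5.25, 5.39 and 5.32 CPM after SEL120-34A and 3.504, 3.46 and 3.04 CPM in DMSO at 24 h, and 7.59, 7.48 and 7.998 CPM after SEL120-34A and 2.96, 2.79 and 2.82 CPM in DMSO at 8 h. It was higher at both times and shrinking, at -0.76 late minus early. Its targets SREBF1 and ABCG1 had changes of -0.22 and -0.51, and ABCG1 was reversed.

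Late genes, absent from the 8-h calls, were led upward by 2 neighbouring serpins. SERPINB2 (ENSG00000197632.9, chromosome 18, 63871692 to 63903890, plus strand), also called PAI-2, is an inhibitor of urokinase made by activated monocytes. It had 9.35, 9.51 and 7.42 CPM after SEL120-34A and 2.69, 2.01 and 2.57 CPM in DMSO at 24 h, and 2.28, 1.65 and 2.504 CPM after SEL120-34A and 2.35, 1.74 and 1.81 CPM in DMSO at 8 h. All 3 SEL120-34A libraries at 24 h lay above the other 9, which overlapped each other. Its 24-h effect was 1.85 ± 0.14, its 8-h effect 0.14 ± 0.16 and the change between them 1.71 ± 0.21 (adjusted p = 4.13e-06). SERPINB10 overlaps SERPINB2 on the same strand, so their reads may be split, and it had a late minus early change of 1.44 ± 0.16. ZCWPW1, a histone methylation reader, PCLO, a presynaptic scaffold protein, and CYP1B1, a cytochrome P450 under the aryl hydrocarbon receptor, followed with 1.14, 1.005 and 0.82.

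Late genes that fell were CD69, KIFC3, DLG4, SYT11 and PLEKHG3. CD69, an early activation antigen of leukocytes, had 11.3, 15.02 and 12.3 CPM after SEL120-34A and 26.4, 20.6 and 22.6 CPM in DMSO at 24 h, and 14.5, 18.6 and 14.9 CPM after SEL120-34A and 14.1, 12.5 and 17.0 CPM in DMSO at 8 h. The 24-h groups did not overlap and the 8-h groups did. The DMSO level rose with time by 0.68, while the change in treated cells, -0.32, missed the threshold (adjusted p = 0.123). SYT11, a synaptotagmin of vesicle traffic, had 10.8, 12.5 and 10.98 CPM after SEL120-34A and 20.9, 19.7 and 18.6 CPM in DMSO at 24 h, and 17.9, 20.8 and 18.8 CPM after SEL120-34A and 18.2, 17.3 and 21.1 CPM in DMSO at 8 h. Here the treated cells moved, and the late minus early change was -0.82 ± 0.10 (adjusted p = 2.51e-06). KIFC3, a minus-end kinesin, and DLG4, a postsynaptic scaffold protein, had changes of -0.97 and -0.96. PLEKHG3, at -0.74, was growing rather than late in 6 of 25 alternatives, and KIFC3 reversed in 3.

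Of 23 NF-kappaB and inflammatory genes 4 were reversed, CCL2, IL1B, CXCL1 and CXCL2, each below control at 24 h and above it at 8 h. CCL2 (ENSG00000108691.9, chromosome 17, 34255218 to 34257203, plus strand), the monocyte chemoattractant, had 4.59, 4.805 and 4.85 CPM after SEL120-34A and 17.2, 12.02 and 13.4 CPM in DMSO at 24 h. Its 8-h levels were 16.97, 17.6 and 19.4 CPM after SEL120-34A and 9.93, 8.75 and 8.35 CPM in DMSO. Treated libraries lay below every control library at 24 h and above every one at 8 h. The 24-h effect was -1.58 ± 0.16, the 8-h effect 0.999 ± 0.15 and the late minus early change -2.58 ± 0.22 (adjusted p = 1.26e-06). CXCL1, a neutrophil chemokine, had an effect of -0.71 at 24 h and 0.18 at 8 h, and was late in 6 of 25 alternatives. ICAM1, an adhesion molecule under NF-kappaB, was late, at -0.60 at 24 h and -0.01 at 8 h. Over the 23 genes of the list 6 had a change below 0 and 3 above, with a median of -0.16. Their 24-h effect was lower for 12 and higher for 2, and their 8-h effect lower for 5 and higher for 6. With library totals alone 8 of the 23 had a late minus early change below 0 and 1 above.

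ZFP36L1, which binds AU-rich elements and speeds mRNA decay, also turned round, with 5.11, 5.73 and 4.82 CPM after SEL120-34A and 14.6, 10.8 and 11.9 CPM in DMSO at 24 h, and 5.497, 4.94 and 5.797 CPM after SEL120-34A and 3.83, 3.92 and 3.59 CPM in DMSO at 8 h. The treated libraries of the 2 times overlapped, and the DMSO libraries lay below them at 8 h and above them at 24 h. CD300LF, an inhibitory myeloid receptor, and AGER, the receptor for advanced glycation end products, had late minus early changes of -1.24 ± 0.11 and -1.11 ± 0.12. CSF1R, the macrophage colony-stimulating factor receptor, had 17.5, 20.5 and 19.4 CPM after SEL120-34A and 33.1, 30.9 and 29.3 CPM in DMSO at 24 h, and 28.7, 31.03 and 29.2 CPM after SEL120-34A and 22.6, 21.99 and 23.3 CPM in DMSO at 8 h. The groups did not overlap at either time, and the sign of the difference was opposite.

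Genes above control at 24 h and below it at 8 h included CAT and FLT3. CAT (ENSG00000121691.7, chromosome 11, 34438925 to 34472062, plus strand), catalase, which breaks down hydrogen peroxide, had 686, 689.6 and 655 CPM after SEL120-34A and 357, 342 and 353 CPM in DMSO at 24 h, and 229, 229 and 225 CPM after SEL120-34A and 246, 246 and 239.9 CPM in DMSO at 8 h. It rose with time in both treatments, by 1.57 after SEL120-34A and by 0.52 in DMSO. Its 8-h effect was small, -0.10 ± 0.02, and it was late rather than reversed when library totals alone set the scale. FLT3 (ENSG00000122025.14, chromosome 13, 28003274 to 28100592, minus strand), a receptor tyrosine kinase of progenitors that is often mutated in acute myeloid leukaemia, had 96.1, 108 and 101 CPM after SEL120-34A and 77.8, 69.8 and 74.2 CPM in DMSO at 24 h. Its 8-h levels were 34.02, 38 and 34.1 CPM after SEL120-34A and 48.5, 47.9 and 53.2 CPM in DMSO. The groups did not overlap at either time, and FLT3 was reversed in all 25 alternatives, with a late minus early change of 0.96 ± 0.08 (adjusted p = 7.47e-08). ANXA2R and ADAT3 had changes of 1.005 and 0.96. ADAT3, a tRNA deaminase subunit, lies within SCAMP4 on the same strand, and ANXA2R was late in 5 alternatives.

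Growing genes were fewer. CD34 (ENSG00000174059.17, chromosome 1, 207880972 to 207911402, minus strand), the surface glycoprotein of haematopoietic progenitors, had 7.29, 7.88 and 7.73 CPM after SEL120-34A and 0.622, 0.736 and 0.789 CPM in DMSO at 24 h, and 2.44, 2.65 and 2.605 CPM after SEL120-34A and 0.906, 0.8298 and 0.993 CPM in DMSO at 8 h. It was above control at both times with no overlap, by 3.41 ± 0.11 at 24 h and 1.499 ± 0.12 at 8 h, and the difference was 1.91 ± 0.17 (adjusted p = 1.03e-10). GPR174, a lysophosphatidylserine receptor, grew by 1.46 ± 0.12, and MYOM1 by 1.33 ± 0.18. Downward, TNFRSF12A, the receptor of the cytokine TWEAK, had 4.56, 3.83 and 4.51 CPM after SEL120-34A and 10.7, 10.1 and 9.99 CPM in DMSO at 24 h, and 10.9, 10.8 and 11.04 CPM after SEL120-34A and 13.2, 12.4 and 12.8 CPM in DMSO at 8 h. LILRA2, an activating receptor of myeloid cells, and NAB2, the corepressor of EGR factors, had late minus early changes of -0.88 and -0.82.

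The largest sustained effects give the scale against which these shifts stand. MS4A4A, a membrane protein of macrophages, had 46.3, 47.2 and 47.3 CPM after SEL120-34A and 13.4, 13.5 and 13.7 CPM in DMSO at 24 h, and 24.5, 23.8 and 23.4 CPM after SEL120-34A and 7.84, 7.34 and 7.38 CPM in DMSO at 8 h. Both treatments rose with time by like amounts, and the late minus early change was 0.12 ± 0.05 (adjusted p = 0.0939). EGR1, an immediate early transcription factor, was lower at both times, at -3.45 ± 0.23 at 24 h and -3.06 ± 0.23 at 8 h. The 95% interval of its late minus early change ran between -1.08 and 0.31, so values of either sign within that range are compatible with these libraries. TOX, SDK2 and EMILIN1 were also among the largest sustained effects, with late minus early changes of -0.001, 0.32 and 0.01.

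**Figure D4:**
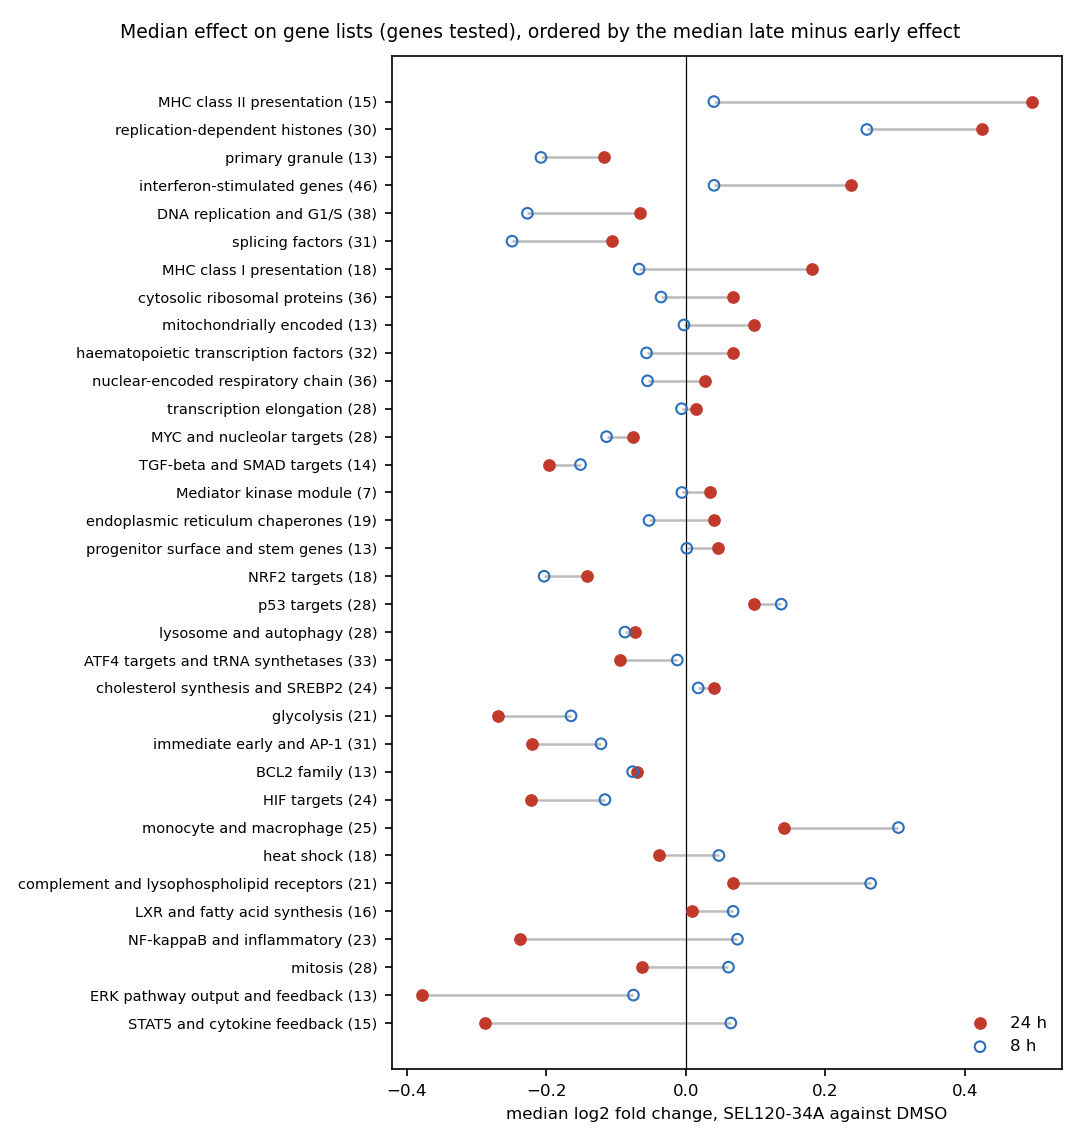
Median effect of SEL120-34A (x axis, log2 SEL120-34A over DMSO) over the tested genes of 34 lists at 24 h (filled red) and 8 h (open blue), ordered by the median late minus early change; the line at 0 marks no effect. MHC class II presentation (0.50 at 24 h, 0.04 at 8 h) is at the top of that order, and STAT5 and cytokine feedback (-0.29 at 24 h, 0.06 at 8 h) and ERK output (-0.38 at 24 h, -0.07 at 8 h) are at its foot.

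MHC class II genes present peptides to helper T cells. Of the 15 listed and tested, 6 were late, 4 growing, 1 sustained and 4 in no class, and 10 had a late minus early change above 0 and none below, with a median of 0.37, and there was 1 below without SEL120-34A 24-h replicate 2 and 2 with library totals alone. At 24 h 11 were higher and none lower, with a median of 0.50, and at 8 h 5 were higher and none lower, with a median of 0.04. HLA-DOA (ENSG00000204252.14, chromosome 6, 33004178 to 33009612, minus strand), a chain of the HLA-DO complex that restrains peptide loading, had 3.74, 3.29 and 3.92 CPM after SEL120-34A and 1.55, 1.08 and 1.26 CPM in DMSO at 24 h, and 0.986, 1.13 and 0.972 CPM after SEL120-34A and 1.16, 1.12 and 1.19 CPM in DMSO at 8 h. All 3 treated libraries at 24 h lay above the other 9, and the late minus early change was 1.66 ± 0.17 (adjusted p = 2.47e-09). CD74, the invariant chain that guides class II molecules, had 1318, 1326 and 1310.4 CPM after SEL120-34A and 1099.5, 1031 and 1019 CPM in DMSO at 24 h, and 1022, 1025 and 1058 CPM after SEL120-34A and 1013, 1018 and 1072 CPM in DMSO at 8 h. HLA-DRA, the class II alpha chain, followed the same order at 342 ± 3.12 CPM after SEL120-34A and 242 ± 9.51 CPM in DMSO at 24 h, and 258 ± 2.196 CPM and 257 ± 10.1 CPM for the same treatments at 8 h (SD, n = 3 each). CIITA, the coactivator that turns class II genes on, was raised at both times, by 0.69 ± 0.04 at 24 h and 0.36 ± 0.04 at 8 h. Reads that map to several HLA genes were not counted, so levels of near-identical HLA genes are uncertain.

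Class II promoters share upstream elements of which the Y box holds the letters CCAAT. The promoters of HLA-DOA and CD74 are shown because both genes were late, with the CCAAT letters, or ATTGG where they stand on the other strand, in capitals. They run 5′ to 3′ on the gene's strand and come from RefSeq on GRCh38.p14, with HLA-DOA at chr6:33009542-33009841 and CD74 at chr5:150412861-150413160, both on the minus strand.
HLA-DOA: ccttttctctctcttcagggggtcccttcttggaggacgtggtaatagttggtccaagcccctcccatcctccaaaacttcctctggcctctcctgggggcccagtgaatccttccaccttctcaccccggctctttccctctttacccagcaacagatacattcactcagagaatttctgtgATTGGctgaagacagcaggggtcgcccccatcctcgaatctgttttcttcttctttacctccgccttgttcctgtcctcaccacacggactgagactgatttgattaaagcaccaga
CD74: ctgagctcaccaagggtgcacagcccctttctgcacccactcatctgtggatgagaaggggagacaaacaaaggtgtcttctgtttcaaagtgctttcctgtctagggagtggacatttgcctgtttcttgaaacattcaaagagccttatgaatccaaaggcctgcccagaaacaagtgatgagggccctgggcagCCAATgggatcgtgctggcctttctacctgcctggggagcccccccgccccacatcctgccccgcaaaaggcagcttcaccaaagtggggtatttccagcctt
Searched on both strands, CCAAT stood in 10 of 13 class II list promoters found in the table (76.9%) and in 35.7% of all 27305 promoters of the same length. The list was chosen for its function in class II presentation, so the share describes the list and not the effect. Genes with a match include HLA-DOB and HLA-DQB1, in no class, and RFX5, which was sustained. A match is a description of these letters and not of binding.

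MHC class I presentation and interferon genes also had more changes above 0 than below. Of 18 class I presentation genes 10 had a late minus early change above 0 and none below, with a median of 0.14, and with library totals alone 4 did. CALR, a chaperone of class I loading and of the endoplasmic reticulum, was reversed at 0.498 at 24 h and -0.14 at 8 h. TAPBPL, a tapasin-like peptide editor, had 13.4, 12.9 and 13.1 CPM after SEL120-34A and 11.3, 11.6 and 11.7 CPM in DMSO at 24 h, and 7.13, 7.75 and 8.02 CPM after SEL120-34A and 10.5, 11.3 and 11.03 CPM in DMSO at 8 h. Of 46 interferon-stimulated genes 11 had a change above 0 and 5 below, with a median of 0.16, against 14.2% and 13% of all tested genes. With each library left out in turn, those above ran between 8 and 16 and those below between 4 and 8. Without SEL120-34A 24-h replicate 2 the counts were 10 above and 8 below, so the size of the excess depended on the libraries used. The effect on these 46 genes was higher for 21 and lower for 10 at 24 h (median 0.24). At 8 h it was higher for 12 and lower for 6 (median 0.04). GBP4, a guanylate-binding protein induced by interferon gamma, was raised by 1.70 at 24 h and 0.92 at 8 h. The factors of the pathway did not move together: IRF1 grew by 0.46, and STAT2 shrank to 0.21 at 24 h, against 0.57 at 8 h.

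DNA replication genes were low at 8 h and closer to control at 24 h. Of 38 replication and G1/S genes 22 had a late minus early change above 0 and none below, with a median of 0.15, and with library totals alone the counts were 16 and 3. Their 24-h effect was higher for 7 and lower for 16 (median -0.07), and their 8-h effect higher for 2 and lower for 30 (median -0.23). Between 8 h and 24 h 29 of the 38 fell and 1 rose in DMSO (median -0.15). After SEL120-34A 12 fell and 11 rose (median -0.02), so over the list the DMSO level moved more than the treated one. In POLA1 and MCM7, given next, the treated level rose. POLA1, the catalytic subunit of DNA polymerase alpha, had 73.3, 73.4 and 69.4 CPM after SEL120-34A and 75.6, 76.3 and 80.8 CPM in DMSO at 24 h, and 46.4, 47.4 and 47.5 CPM after SEL120-34A and 72.01, 73.8 and 73.2 CPM in DMSO at 8 h. The groups lay close together at 24 h and far apart at 8 h, and the change was 0.53 ± 0.05 (adjusted p = 4.69e-11). MCM7, a subunit of the replicative helicase, had 639.7, 607 and 638 CPM after SEL120-34A and 583, 589 and 582 CPM in DMSO at 24 h, and 534, 523 and 535 CPM after SEL120-34A and 625, 638 and 612 CPM in DMSO at 8 h. It was reversed, and MCM2 through MCM7 all had a called change above 0. E2F1 and E2F2, the activating E2F factors of G1/S, were still lower at 24 h, at -0.32 and -0.25, against -0.58 and -0.65 at 8 h.

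E2F factors bind TTTGGCGC or TTTCCCGC, and the promoters of POLA1 and MCM7 are shown because both carry such letters and both genes had a called change above 0. The matches, which lie on the other strand and so read GCGCCAAA and GCGGGAAA, are in capitals. The RefSeq positions on GRCh38.p14 are chrX:24693668-24693967, plus strand, for POLA1 and chr7:100101348-100101647, minus strand, for MCM7.
POLA1: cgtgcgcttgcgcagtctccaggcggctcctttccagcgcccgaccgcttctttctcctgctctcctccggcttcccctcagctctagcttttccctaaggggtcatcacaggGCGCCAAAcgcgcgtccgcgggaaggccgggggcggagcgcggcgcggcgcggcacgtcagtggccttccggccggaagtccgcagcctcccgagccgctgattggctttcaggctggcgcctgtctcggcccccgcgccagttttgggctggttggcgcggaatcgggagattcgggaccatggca
MCM7: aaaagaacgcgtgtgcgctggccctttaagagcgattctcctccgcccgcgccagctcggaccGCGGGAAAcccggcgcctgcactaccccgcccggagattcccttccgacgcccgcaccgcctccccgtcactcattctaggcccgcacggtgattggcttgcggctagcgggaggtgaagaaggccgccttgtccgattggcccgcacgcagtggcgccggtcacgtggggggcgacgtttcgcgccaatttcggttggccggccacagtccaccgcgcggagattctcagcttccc
Either motif, on either strand, stood in 19 of 33 list promoters found in the table (57.6%) and in 2.31% of all 27305. The list was chosen for its function in replication, so the share describes the list and not the effect.

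Mitotic genes went the other way. Of 28, 15 had a late minus early change below 0 and 1 above, with a median of -0.17. Their 24-h effect was lower for 12 and higher for 3, and their 8-h effect lower for 4 and higher for 11. NEK2, a centrosome kinase, had 41.8, 41.2 and 44.3 CPM after SEL120-34A and 40.9, 40.05 and 39.7 CPM in DMSO at 24 h, and 61.4, 64.1 and 61.5 CPM after SEL120-34A and 47.4, 46.2 and 47.7 CPM in DMSO at 8 h. The treated libraries lay above the controls at both times, by a small margin at 24 h that did not pass the test. MKI67, the proliferation antigen Ki-67, was reversed at -0.16 at 24 h and 0.07 at 8 h, but late in 16 of 25 alternatives. HMMR was the 1 mitotic gene with a change above 0, a call lost when any of 8 of the 12 libraries was left out, all but DMSO 8-h replicate 2, SEL120-34A 8-h replicate 2, DMSO 24-h replicate 3 and SEL120-34A 24-h replicate 1. Replication-dependent histones, which lack poly-A tails and are poorly sampled by poly-A selection, had 5 of 30 above 0 and none below. The share above 0 is near the 14.2% of all tested genes.

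**Figure D5:**
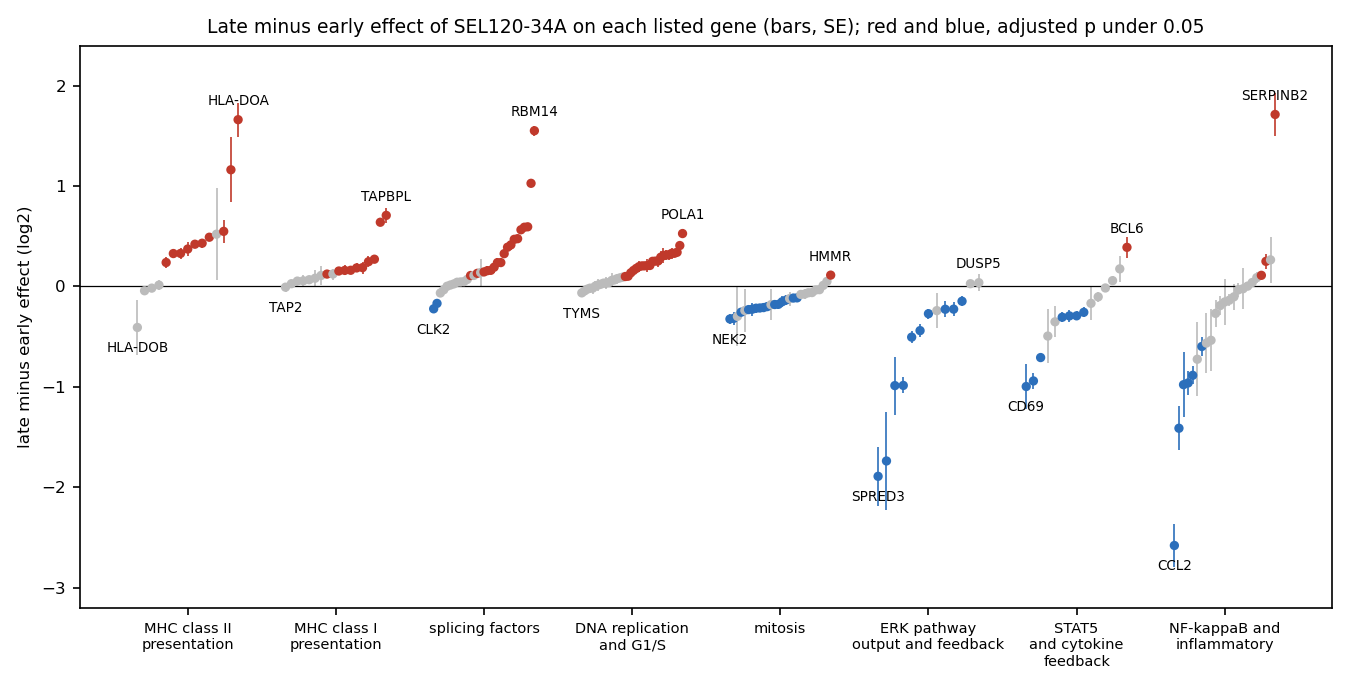
Late minus early log2 change of the SEL120-34A effect (y axis, bars SE) for each tested gene of 8 lists (x axis), in order of its value within a list; grey marks no call, red a called change above 0 and blue a called change below 0. Splicing, replication and MHC class II genes lie mainly above 0, and mitosis, ERK output and STAT5 genes below.

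Outputs of the ERK pathway, the growth-factor cascade that induces its own feedback inhibitors, were lower late. Of 13 tested, 10 had a late minus early change below 0 and none above, with a median of -0.27. Their 24-h effect was lower for 11 and higher for 2, with a median of -0.38, and their 8-h effect lower for 5 and higher for 3, with a median of -0.07. ETV5, a PEA3 transcription factor induced by ERK, had 10.9, 11.3 and 12.1 CPM after SEL120-34A and 21.9, 18.6 and 18.9 CPM in DMSO at 24 h, and 18.1, 19.1 and 18.5 CPM after SEL120-34A and 15.8, 15.2 and 17.6 CPM in DMSO at 8 h. The groups did not overlap at 24 h, where treated cells were lower, nor at 8 h, where they were higher. SPRED1 and SPRY2, feedback inhibitors of RAS signalling, were growing, with -0.70 and -0.65 at 24 h against -0.20 and -0.21 at 8 h. ETV5 overlaps DGKG on the same strand. Among 31 immediate early and AP-1 genes 10 had a change below 0 and 5 above, with a median of -0.05. With library totals alone 12 were below and 2 above, and without DMSO 8-h replicate 3 there were 3 above. FOSL1, an AP-1 subunit, was late at -0.500 at 24 h, NR4A1, a nuclear receptor, likewise at -0.41, and JUNB and ZFP36 shrank to -0.37 and -0.26 at 24 h, against -0.53 and -0.62 at 8 h; JUNB left the shrinking class in 5 of 25 alternatives and ZFP36 in 12.

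STAT5, which cytokine receptors activate, has PIM1 among its targets. PIM1, a serine kinase, had 129, 129.6 and 127 CPM after SEL120-34A and 189, 184 and 179.8 CPM in DMSO at 24 h, and 213, 216 and 219 CPM after SEL120-34A and 189, 187 and 192 CPM in DMSO at 8 h. Treated libraries lay below the controls at 24 h and above them at 8 h, and the change was -0.71 ± 0.04 (adjusted p = 1.52e-16). Of 15 STAT5 and cytokine feedback genes 7 had a change below 0 and 1, BCL6, above, with a median of -0.29. The cyclins CCND2 and CCND3 had changes of -0.29 and -0.26. Of 14 TGF-beta and SMAD targets 4 had a change below 0 and 2 above, with a median of 0.06. Those below numbered 2 without DMSO 24-h replicate 2 or DMSO 8-h replicate 1. Those above numbered 0 without SEL120-34A 8-h replicate 2 and 1 without any of 7 other libraries, namely the 3 DMSO ones at 24 h, SEL120-34A 24-h replicates 1 and 3, and DMSO 8-h replicates 2 and 3. ID1, an inhibitor of helix-loop-helix factors and a SMAD target, was reversed at -0.68 at 24 h and 0.26 at 8 h, and ID2 grew downward, at -1.10 at 24 h and -0.48 at 8 h.

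Granule genes were called in both directions. MPO, myeloperoxidase of the primary granule, had 12.6, 10.97 and 12.8 CPM after SEL120-34A and 33.6, 37.6 and 33.7 CPM in DMSO at 24 h, and 8.43, 8.23 and 8.17 CPM after SEL120-34A and 14.6, 16.02 and 14.2 CPM in DMSO at 8 h. It rose with time in both treatments, by 0.55 after SEL120-34A and by 1.23 in DMSO, and its late minus early change was -0.67 ± 0.09. CEBPE, the factor of late granulocyte maturation, was reversed instead, with 53.3, 51.8 and 50.2 CPM after SEL120-34A and 40.4, 37.8 and 37.8 CPM in DMSO at 24 h, and 38.2, 35.9 and 38.5 CPM after SEL120-34A and 49.4, 46.1 and 44.9 CPM in DMSO at 8 h. CTSG, the granule protease cathepsin G, and MS4A3, a granulocyte progenitor protein, had changes of 0.62 and 0.44. Of 13 tested genes of the primary granule list 7 were above 0 and 3 (MPO, AZU1 and LYZ) below, with a median of 0.20. The list is wider than granule proteins: it also holds CEBPE and MS4A3, both among those above 0. Of the 10 tested myeloid identity genes none was above 0 and 6 were below, with a median of -0.28.

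Monocyte and progenitor genes were called in both directions. Of 25 monocyte and macrophage genes 4 had a change above 0 and 5 below, with a median of -0.06, near the 14.2% and 13% of all tested genes. With library totals alone 1 was above, and without DMSO 8-h replicate 2 there were 3 below. MPEG1, the macrophage perforin, had 140.3, 147 and 138 CPM after SEL120-34A and 39.4, 37.2 and 37.8 CPM in DMSO at 24 h, and 70.9, 76.2 and 72.9 CPM after SEL120-34A and 36.8, 34.4 and 34.5 CPM in DMSO at 8 h, and it was growing. ITGAX, the integrin CD11c, was lower at both times, at -1.11 at 24 h and -0.57 at 8 h, and growing here but sustained in 14 of 25 alternatives. Of 13 progenitor surface and stem genes 3 (CD34, FLT3 and CD38) had a change above 0 and 2 (GATA2 and CD33) below. Of 32 haematopoietic transcription factors 14 had a change above 0 and 5 below, with a median of 0.09. ZEB2, a zinc-finger repressor, had 338, 377 and 356 CPM after SEL120-34A and 324, 315 and 322 CPM in DMSO at 24 h, and 176, 184 and 173 CPM after SEL120-34A and 228, 228 and 238 CPM in DMSO at 8 h. It was reversed, as was MYB, at 0.11 at 24 h and -0.21 at 8 h. MEF2C, a MADS-box transcription factor, shrank to 0.31 at 24 h, against 0.69 at 8 h. Of 21 complement and lysophospholipid receptor genes 3 were above 0 and 6 below, with a median of -0.10, and S1PR4, a sphingosine 1-phosphate receptor, was reversed with 0.23 at 24 h and -0.42 at 8 h.

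SEL120-34A targets CDK8 and CDK19. CDK8 had 35.6, 38.7 and 37.4 CPM after SEL120-34A and 38.1, 37.9 and 36.8 CPM in DMSO at 24 h, and 38.3, 38.5 and 37.1 CPM after SEL120-34A and 36.7, 36.9 and 37.8 CPM in DMSO at 8 h, and its groups overlapped at both times. Of the 7 genes of the module 2 had a called late minus early change, both above 0, which is near the share among all tested genes (27.3%). MED13L was late, with 411, 447 and 426 CPM after SEL120-34A and 319, 308 and 299 CPM in DMSO at 24 h, and 220.0, 236 and 222 CPM after SEL120-34A and 217, 211 and 233 CPM in DMSO at 8 h, a change of 0.43 ± 0.06. MED13 was transient, at -0.05 at 24 h and -0.27 at 8 h. An inhibitor acts on the kinase and not on its transcript, so these levels do not check the treatment.

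The series title names venetoclax, which inhibits the survival protein BCL2. BCL2 was late and higher: it had 467, 504 and 489 CPM after SEL120-34A and 426, 407 and 399.7 CPM in DMSO at 24 h, and 326, 331 and 325 CPM after SEL120-34A and 322, 315 and 329.7 CPM in DMSO at 8 h. The groups overlapped at 8 h and not at 24 h, and the change was 0.22 ± 0.04 (adjusted p = 7.76e-05). BCL2L11, which encodes the death activator BIM, was reversed at 0.15 at 24 h and -0.13 at 8 h, and BMF, another BH3-only gene, was transient, at -0.07 at 24 h and -0.57 at 8 h. BCL2L1, for BCL-XL, was reversed in the other direction, at -0.18 at 24 h and 0.11 at 8 h, and late in 6 of 25 alternatives. Of the 13 family genes tested 3 were above 0 and 2 below, with a median of -0.05. Of 28 p53 targets 3 were above 0 and 6 below, 14 of them being higher at 24 h and 15 at 8 h, and with library totals alone 11 were below. The number of p53 targets above 0 was 1 without DMSO 24-h replicate 2 or SEL120-34A 8-h replicate 3 and 5 without SEL120-34A 8-h replicate 2.

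MYC and MCL1 stand for growth and for survival beside BCL2. MYC had 614, 606 and 610.1 CPM after SEL120-34A and 689.9, 656 and 643 CPM in DMSO at 24 h, and 607, 603 and 636 CPM after SEL120-34A and 688, 678 and 677 CPM in DMSO at 8 h, a late minus early change of 0.03 ± 0.04 (adjusted p = 0.638). MCL1, a survival protein of the BCL2 family, had a change of -0.05 ± 0.03 (adjusted p = 0.275). In growth and translation genes the called late minus early changes were above 0, with counts that depended on the scale. A change above 0 need not mean a level that rose with time. Of 36 cytosolic ribosomal protein genes 23 had a late minus early change above 0 and none below, with a median of 0.11, but 4 did with library totals alone. With time 27 of these rose and 1 fell after SEL120-34A, and 9 rose and 5 fell in DMSO. Of 36 nuclear-encoded respiratory chain genes 13 were above 0 and none below, against 6 with library totals alone and 21 without SEL120-34A 24-h replicate 2. Without SEL120-34A 24-h replicate 1 or DMSO 8-h replicate 1 or 2, 1 was below. With time 24 of the respiratory chain genes fell and 1 rose in DMSO (median -0.11). After SEL120-34A 11 fell and 7 rose (median -0.01). Of 13 mitochondrially encoded genes 4 were above 0 and none below, and 1 with library totals alone. Of 28 MYC and nucleolar targets 6 were above 0 and none below, and 11 without DMSO 8-h replicate 3. These targets fell with time in both treatments. In DMSO 26 fell and 0 rose (median -0.27), and after SEL120-34A 24 fell and 2 rose (median -0.22). NPM1, a nucleolar chaperone, was reversed at 0.06 at 24 h and -0.19 at 8 h, but transient in 17 of 25 alternatives.

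Metabolic and stress lists were mixed in their late minus early change, though glycolysis genes and NRF2 targets were mainly lower at both times. Of 21 glycolysis genes 13 were lower and 1 higher at 24 h, 12 lower and 1 higher at 8 h, and 10 were sustained. Of 18 NRF2 targets 9 were lower and 1 higher at 24 h, and 13 lower and 0 higher at 8 h. Of all tested genes 18.6% were lower at 24 h and 22.6% at 8 h. Of 24 cholesterol synthesis genes 3 were above 0 and 6 below, counts that became 8 above without DMSO 24-h replicate 1 and 1 below without 4 libraries, 1 per group, at one end of the first principal component within groups. INSIG1, the sterol sensor that holds SREBP back, was reversed, with 311, 335 and 318 CPM after SEL120-34A and 303, 257 and 261 CPM in DMSO at 24 h, and 133, 137 and 126 CPM after SEL120-34A and 166, 156 and 163 CPM in DMSO at 8 h. Of 21 glycolysis genes none was above 0 and 3 were below, and of 24 HIF targets none was above and 1, ANKRD9, below. Without SEL120-34A 24-h replicate 2 the HIF targets below numbered 3, and without DMSO 24-h replicate 2, DMSO 8-h replicate 3 or SEL120-34A 8-h replicate 3 they numbered 2. One was above without DMSO 24-h replicate 1, DMSO 8-h replicate 2 or SEL120-34A 8-h replicate 2, and without the first of these 1 glycolysis gene was above too. HIF target levels varied between libraries of a group and were higher in every DMSO library at 24 h than in those at 8 h. The mean log2 CPM of the 24 was 4.80, 5.27 and 4.91 after SEL120-34A and 5.36, 5.11 and 5.12 in DMSO at 24 h, and 4.43, 4.84 and 4.15 after SEL120-34A and 4.59, 4.35 and 5.07 in DMSO at 8 h. An alternative fit took as covariate the deviation of each library's mean from its group's mean. In it 6 of the 24 HIF targets were above 0 and 10 below. The covariate was built from these same 24 genes and leaves differences between groups in place. More calls among the 24 therefore follow in part from how it was made. Of 33 ATF4 targets and tRNA synthetases 5 were above 0 and 8 below, against 1 and 16 with library totals alone and 5 below without DMSO 24-h replicate 1. ATF5, a stress-induced factor, shrank to -0.27 at 24 h, against -0.81 at 8 h. Of 18 heat shock genes 6 were above 0 and 7 below: HSPA1A was reversed, at -0.15 at 24 h and 0.25 at 8 h, though transient in 12 of 25 alternatives, while HSP90AB1, a constitutive chaperone, had a change of 0.17. Of 18 NRF2 targets 5 were above and 3 below, of 28 lysosome and autophagy genes 7 and 6, and of 19 endoplasmic reticulum chaperones 5 and 2, the last ranging between 2 and 9 above 0 over the alternatives. With library totals alone 3 lysosome and autophagy genes were above and 12 below, and 2 heat shock genes above and 10 below. The number of endoplasmic reticulum chaperones above 0 was 8 without DMSO 24-h replicate 1 or SEL120-34A 8-h replicate 2 and 3 without SEL120-34A 8-h replicate 3, and 1 was below without SEL120-34A 24-h replicate 2.

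The same subtraction for AML874 uses the same DMSO libraries, so the 2 sets of changes are not independent, and the difference between the compounds was not tested. For the gene ranked first in each direction of the classes with a called difference, the late minus early changes of SEL120-34A and of AML874 stand as follows. The AML874 changes are listed whether or not they were called. That of C3AR1 was not called in the same quasi-likelihood test (adjusted p = 0.0727). For genes low at 8 h, RBM14 had 1.55 and 0.99, and BCLAF1 1.03 and 0.18. For genes high at 8 h, C3AR1 had -1.83 and -1.05, SCART1 -1.38 and -0.52, and CCL2 -2.58 and -1.84. Among late and reversed genes SERPINB2 had 1.71 and 0.44, CD69 -0.997 and 0.10, and CAT 1.05 and 0.66. Among growing genes CD34 had 1.91 and 2.24, and TNFRSF12A -1.01 and -1.05.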

How the data were processed

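Reads were aligned with STAR 2.7.1a and quantified with RSEM 1.3.2 against GRCh38, per the submitters' processing notes; the annotation release and trimming are not given in the sources used here. The deposited counts per gene come in unstranded, forward and reverse columns, and the reverse column was used, since forward counts were 6.27% to 6.66% of it. The authors' deposited expected counts per gene from RSEM, rounded to whole numbers, served as an alternative. Reads that map to several places are left out of the counts. The 4 summary lines (unmapped, multi-mapping, no feature, ambiguous) equalled 21.9% to 25.5% of all lines' counts and were left out. Genes kept by edgeR's filter were scaled with TMM and fitted in edgeR 4.0.16 (R 4.3.3) over all 18 libraries and 6 groups with robust quasi-likelihood dispersion, and p-values were adjusted over all 20920 genes by Benjamini-Hochberg. Log2 changes are given ± SE and levels as CPM, the count divided by the TMM-scaled library size. A call is an adjusted p under 0.05. The genes named, the gene lists and the tests were chosen with earlier results of these data known. Named genes are, in each class and direction, the 3 to 5 protein-coding genes with the largest late minus early change among those whose group mean reached 5 CPM in some group (for sustained genes, the largest of the smaller effect), up to 4 per list by p, and the Mediator kinase module, BCL2, MCL1, MYC and EGR1. The values of 2 genes are not reported here. Other list members given in the report were chosen after their values were seen. Positions and gene types come from GENCODE 29, which held 58502 of the 60609 identifiers. Alternatives were DESeq2 1.42.0, limma 3.58.1 (voom), other scalings and filters, unstranded and RSEM counts, a replicate block, a HIF covariate and each of the 12 libraries left out; leaving out 4 libraries together, 1 per group, at one end of the first principal component within groups was chosen after seeing the data. The fit was tested on simulated data. The smallest library held 98975944 gene counts.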

Additional observations from a re-analysis of the deposited data

Results flagged for a closer look

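The effect of SEL120-34A differed between 24 h and 8 h, by the test of the difference itself, upward for 2979 genes and downward for 2727. For 726 genes both effects were called and had opposite signs. Of these, 8 genes are named. After SEL120-34A at 24 h against 8 h, each relative to DMSO, the log2 change of the effect was -2.58 for CCL2, -1.78 for ZFP36L1, -1.24 for CD300LF and -1.11 for AGER, which were above control at 8 h. It was 1.05 for CAT, 1.00 for ANXA2R, 0.96 for ADAT3 and 0.96 for FLT3, which were below control at 8 h. For ZFP36L1 the SEL120-34A libraries did not change between the times by the test (-0.06 on the log2 scale, adjusted p = 0.773) and the DMSO libraries did (1.72, adjusted p = 8.26e-08). Groups of 3 libraries are too small for a test of single outlying libraries.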

How the results depend on the processing

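Of the 46 genes named by class, 30 kept their class in every one of 25 alternatives and 16 did not; a class rests on 3 thresholds. With library totals alone there were 1811 upward and 4418 downward calls; the other scalings left the share of upward calls at 49.4% (median-of-ratios) and 49.5% (DESeq2). Requiring 1 CPM in 3 libraries left 1242 genes called at 8 h alone without a called difference. At an adjusted p under 0.01 there were 1757 downward calls, 243 growing, 467 shrinking and 389 reversed genes. TAF9B, a TFIID subunit, was the reversal among named genes: 0.74 with stranded counts and -0.24 (adjusted p = 0.0365) with unstranded counts, where genes on the other strand are counted together; the cause was not tested. With each library left out in turn, upward calls ran between 2647 and 3050, downward calls 2368 and 2670, sustained 2856 and 3030, growing 354 and 440, shrinking 644 and 894, transient 1943 and 2411, late 1108 and 1338, reversed 575 and 721, 8 h alone 1815 and 2689, 24 h alone 1212 and 1905, interaction alone 140 and 164, and time calls 7584 and 9028 in DMSO and 9620 and 10654 in SEL120-34A. Libraries with the same replicate number did not deviate together (4 of 12 correlated best with their own number), so the replicate block is only an alternative: it gave 2917 upward and 2636 downward calls, 3003 sustained, 2198 transient, 1306 late and 680 reversed genes, and changed no called named gene's call. Calls near the threshold that were lost in several alternatives include ENPP2, ALDOA and MT-CO3. Low counts limit the genes under 1 CPM, and leaving out the 4 libraries chosen after seeing the data left 52.8% of calls upward.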
